A study of Homo sapiens with 3 samples.

Results

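The miR-99/100 and miR-125 families were examined in RNA recovered with Argonaute2 (Ago2), the core protein of the RNA-induced silencing complex (RISC), into which a miRNA is loaded as a guide. The 5 members were hsa-miR-99a, hsa-miR-99b, hsa-miR-100, hsa-miR-125a-5p and hsa-miR-125b, taken by exact name from the 851 human miRNA names on the array. The RNA came from Hep G2 cells, an established human liver cancer line, and was recovered by immunoprecipitation with an antibody to human Ago2 (Ago2-IP). One group was non-treated (no transfection), and the other groups received 5 nM of a double-stranded RNA mimicking miR-195 or miR-497 by lipofection and were collected 24 hours later. Each group held 1 array, all 3 arrays shared 1 slide, and no array of cells given a control duplex was analysed here, so the effects of a mimic and of transfection itself cannot be told apart. With 1 array per group no difference has a replicate check and no test was possible. No array of total RNA was analysed here either, so a lower signal can stand for less of a miRNA in the cells or for less of it in Ago2, which cannot be told apart.

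Vertebrate miR-99/100 and miR-125 genes lie together with a let-7 gene in clusters that arose by duplication, and the miRNAs of a cluster can be cut from 1 primary transcript. The miR-125 family is related to lin-4 of the worm, a regulator of developmental timing, and let-7 acts in the same pathway. Members of the miR-99/100 family are known to repress MTOR, a kinase that controls growth. miR-99a, let-7c and miR-125b are known as abundant miRNAs of normal liver that are often lower in liver cancer. A miRNA finds its targets mainly through its seed, bases 2 to 8 from the 5′ end.

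The mature strands are shown because the members of a family share a seed and differ only downstream of it or at base 1. The seed is in capitals. Sequences and positions are from RefSeq on GRCh38.p14, in which all 14 names looked up (the 5 members and 9 relatives) were found.
hsa-miR-99a: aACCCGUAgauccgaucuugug
hsa-miR-100: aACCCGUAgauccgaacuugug
hsa-miR-99b: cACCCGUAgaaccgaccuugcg
hsa-miR-125b: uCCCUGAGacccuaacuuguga
hsa-miR-125a-5p: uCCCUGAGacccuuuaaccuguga

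Counted from the 5′ end, miR-99a and miR-100 differ at 1 position, U16A. From miR-99a to miR-99b there are 4 substitutions, A1C, U11A, U16C and U21C. miR-125a-5p has 24 bases and miR-125b has 22, and they are 3 edits apart. Among 2370 human mature names in the RefSeq table, the miR-99/100 seed occurs in these 3 miRNAs alone, and the miR-125 seed in its 2 family members and in hsa-miR-4319.

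The genes fall into 3 clusters. On chromosome 19 lie MIR99B (mature strand chr19:51692618-51692639, plus strand), MIRLET7E and MIR125A (chr19:51693268-51693291, plus strand), within the spans of SPACA6 and its antisense transcript SPACA6-AS1. On chromosome 21 lie MIR99A (chr21:16539101-16539122, plus strand), MIRLET7C and MIR125B2 (chr21:16590253-16590274, plus strand), within the non-coding host gene MIR99AHG. On chromosome 11 lie MIR125B1 (chr11:122099809-122099830, minus strand), MIRLET7A2 and MIR100 (chr11:122152275-122152296, minus strand), within the non-coding host gene MIR100HG. Mature miR-125b has the same sequence from chromosomes 11 and 21, so a probe cannot tell these copies apart. The let-7 strands of the clusters are shown because they are the nearest neighbours of the members and served as a comparison.
hsa-let-7a: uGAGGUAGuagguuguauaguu
hsa-let-7c: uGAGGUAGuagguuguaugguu
hsa-let-7e: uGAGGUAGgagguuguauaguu

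let-7e (chromosome 19) differs from let-7a by U9G, and let-7c (chromosome 21) differs from let-7a by A19G. let-7a is also made from chromosomes 9 and 22, and so does not stand for the chromosome 11 cluster alone.

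The values below are spot signals in scanner units, with the local background already subtracted, so that a spot without bound RNA reads near 0 and can be negative. Each member had 2 probes and 16 spots per array, of which 11 to 16 remained after flagged outlier spots were left out. The scanner software flags single spots as well above background. A probe was called so if over 50% of its used spots had the flag, and a miRNA was called so if any of its probes was. A miRNA's signal is the sum of its probe means, and ± gives the SD between spots of the same array, which covers technical error within the array only. Levels of different miRNAs are not compared, since probes differ in their binding.

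In all, 168 human miRNAs were well above background in the non-treated sample, 153 in the miR-195 sample and 121 in the miR-497 sample. The 75th percentile of the 183 probes detected on every array was 827, 778 and 263 units in the same order, the miR-497 array being the dimmest. hsa-miR-195 read 38522 units on its own array against 45.3 without transfection, and hsa-miR-497 read 7903 units on its own array against 11.8, which matches the labels. Of 4 liver miRNAs, miR-192, miR-194 and miR-215 were well above background on each array. miR-122, the liver's defining miRNA, was not, at 3.62, -0.24 and 5.62 units. None of the muscle, neuron or stromal markers was well above background on any array, while miR-142-3p, 1 of 3 blood markers, was so on each array (397 to 1521 units).

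Only the chromosome 19 copies of both families were found in Ago2. Of the 5 members, miR-99b and miR-125a-5p were well above background in non-treated cells, where 19.7% of all human names were so. Both passed again after miR-195 (18.0% of all names), and miR-125a-5p alone passed after miR-497 (14.2% of all names). miR-99a, miR-100 and miR-125b did not pass on any array. The shares of all names are given for orientation, since a list of 5 carries little weight against them.

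miR-125a-5p, the chromosome 19 member of the lin-4 related family, read 213 ± 19.8 units in non-treated cells, 165 ± 12.96 in miR-195-transfected cells and 61.0 ± 5.98 in miR-497-transfected cells. Its signal came almost wholly from 1 of its probes, whose means were 205 ± 19.5 units over 8 spots, 158 ± 12.9 over 8 spots and 59.4 ± 4.67 over 7 spots, with every spot well above background. The spots of that probe ran from 183 to 234 units in non-treated cells, from 146 to 177 after miR-195 and from 52.9 to 65.8 after miR-497. The spot ranges of the 3 arrays did not overlap before scaling, and how many other probes behaved so was not counted. Without scaling, 1.69% of the human miRNAs measured on both arrays were higher after miR-497 than in non-treated cells. After miR-195 the share was 38.8%. The unscaled separation is therefore not read as particular to miR-125a-5p. The other probe of miR-125a-5p read 7.57, 6.43 and 1.64 units and had no spot well above background.

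miR-99b, the chromosome 19 member of the family known to repress MTOR, read 89.4 ± 8.20 units in non-treated cells, 77.5 ± 8.26 after miR-195 and 15.8 ± 3.56 after miR-497. Its brighter probe read 74.5 ± 7.75 units (8 of 8 spots well above background), 64.1 ± 7.29 (8 of 8 spots) and 14.9 ± 1.97 (0 of 7 spots). The spots of that probe ran from 63.2 to 83.7 units, from 55.2 to 74.96 units and from 11.98 to 17.6 units. Before scaling, the first 2 arrays overlapped, and the miR-497 array, the dimmest as a whole, lay below both. The other probe read 14.9 units with 4 of 8 spots well above background in non-treated cells, and 13.4 and 0.97 units with no such spot on the transfected arrays.

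The chromosome 21 and 11 copies stayed at the level of spots that bind nothing. miR-99a read 7.12, 0.69 and -2.07 units in non-treated, miR-195-transfected and miR-497-transfected cells. miR-100 read 1.87, -0.26 and -2.97 units, and miR-125b read -7.27, -2.33 and -6.27 units. None of their used spots was well above background on any array. Among the outlier spots left out, 1 of miR-99a and 1 of miR-100 carried the flag in non-treated cells.

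Spots of negative control probes, which match no miRNA, averaged 3.99 ± 3.15, 3.76 ± 3.38 and 4.71 ± 4.0005 units over 423, 424 and 428 spots. The 6 probes of miR-99a, miR-100 and miR-125b had means from -4.22 to 4.15 units in non-treated cells, from -2.30 to 2.61 after miR-195 and from -4.17 to 1.98 after miR-497. The means of the negative control probes ran from 2.82 to 6.39, from 2.10 to 6.20 and from 2.80 to 8.41 units. No member of these copies had a probe above that range. The dimmest spots called well above background read 15.2, 20.7 and 18.0 units, and lower levels of these miRNAs were not detectable. miR-99a and miR-100, which differ at 1 base, could take up each other's RNA, and both were at background.

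**Figure D1:**
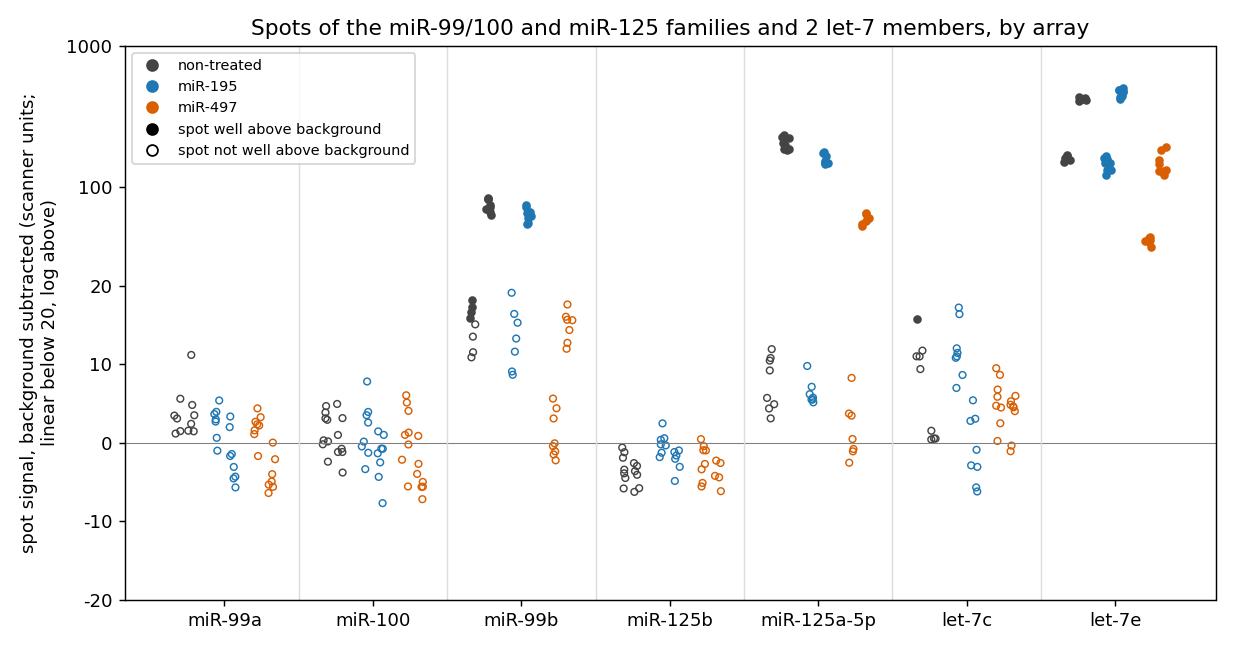
Background-subtracted signal of each used spot (vertical axis, scanner units, linear below 20 and logarithmic above) for the 5 members, let-7c and let-7e, with the 2 probes of a miRNA side by side within each array. Filled points are spots well above background; those of miR-99a, miR-100 and miR-125b are all open and scatter around 0, while 1 probe of miR-99b and 1 of miR-125a-5p stand clear of the background in non-treated and miR-195-transfected cells.

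The let-7 genes of the clusters split in the same way. let-7e, of the chromosome 19 cluster, was well above background with both probes on each array, at 581 ± 11.4 units in non-treated cells, 612 ± 35.4 after miR-195 and 190 ± 26.3 after miR-497. let-7c, of the chromosome 21 cluster, read 12.6, 10.9 and 8.82 units and did not pass on any array. let-7a read 1799, 1718 and 610 units with both probes passing, but its genes on chromosomes 9, 11 and 22 give the same mature strand. All mature guide strands tested from chromosome 19 were thus detected in non-treated cells, and none of the miRNAs made from chromosomes 11 or 21 alone. let-7e and let-7a differ at 1 base, so the let-7e probes could take up let-7a RNA. How far this entered the let-7e signal, and the ratios to let-7e below, was not tested.

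The other strands of the hairpins, which are usually discarded when the guide is loaded, were not found. hsa-miR-99a*, hsa-miR-99b*, hsa-miR-100*, hsa-miR-125a-3p, hsa-miR-125b-1* and hsa-miR-125b-2* had 2 to 4 probes each and were not well above background on any of the 3 arrays. Their summed signals lay between -21.2 and 7.79 units. A single spot of hsa-miR-99a* on the miR-195 array was well above background.

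For the differences between arrays, each signal was divided by the 75th percentile of the 183 probes detected on every array, and differences are on the log2 scale. Without scaling, the median difference of the human miRNAs measured on both the miR-497 and non-treated arrays was -1.62, and miR-125a-5p stood at -1.80.

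After scaling, no difference measured on both arrays reached 2-fold for a chromosome 19 member, and for miR-99b after miR-497 only a bound was available. Against non-treated cells, miR-125a-5p differed by -0.28 (spot SD 0.18) after miR-195 and by -0.15 (spot SD 0.20) after miR-497. The scaled difference between the mimics, miR-497 minus miR-195, was 0.13 (spot SD 0.18). Only the value for miR-195 exceeded its spot SD. Of the 147 human miRNAs measured on both arrays of that comparison, 24 had a lower value, and their quartiles were -0.19 and 0.20. The spot SD is that of single spots and not the error of their mean. Lying within or beyond it does not show whether a difference was present.

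miR-99b differed by -0.12 (spot SD 0.20) between miR-195-transfected and non-treated cells, within its spot SD. On the miR-497 array it had only a bound. Its level there was set to the lowest signal among human miRNAs well above background on that array, 19.1 units, which lay above its own 15.8. Against that bound miR-99b was 1.49-fold lower after miR-497 than in non-treated cells, and 1.37-fold lower than after miR-195. The bound is a set level and not a strict limit. Undetected miRNAs had sums up to 36.3 units on that array. With the brightest probe alone, the bound against non-treated cells was -0.39 log2 units. Whether either difference reached 2-fold was not determined.

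Between miR-195-transfected and non-treated cells, 0 of the 2 members measured on both arrays were at least 2-fold different, against 3.40% of all miRNAs so measured (5 of 147). miR-125a-5p, the 1 member measured on both arrays of the other comparisons, was not 2-fold different between miR-497-transfected and non-treated cells, against 3.39% (4 of 118), nor between the transfected arrays, against 1.71% (2 of 117). These shares leave out miRNAs with only a bound, such as miR-99b, and 1 or 2 members are too few to be read against them. The median over the measured members was -0.20 (spot SD 0.13, n = 2 miRNAs) for miR-195 against non-treated cells, beside -0.01 over all measured miRNAs. It was -0.15 for miR-497 against non-treated cells and 0.13 for miR-497 against miR-195, both from miR-125a-5p alone, beside 0.03 and 0.02 over all measured miRNAs. The comparisons share arrays and are not independent of each other.

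**Figure D2:**
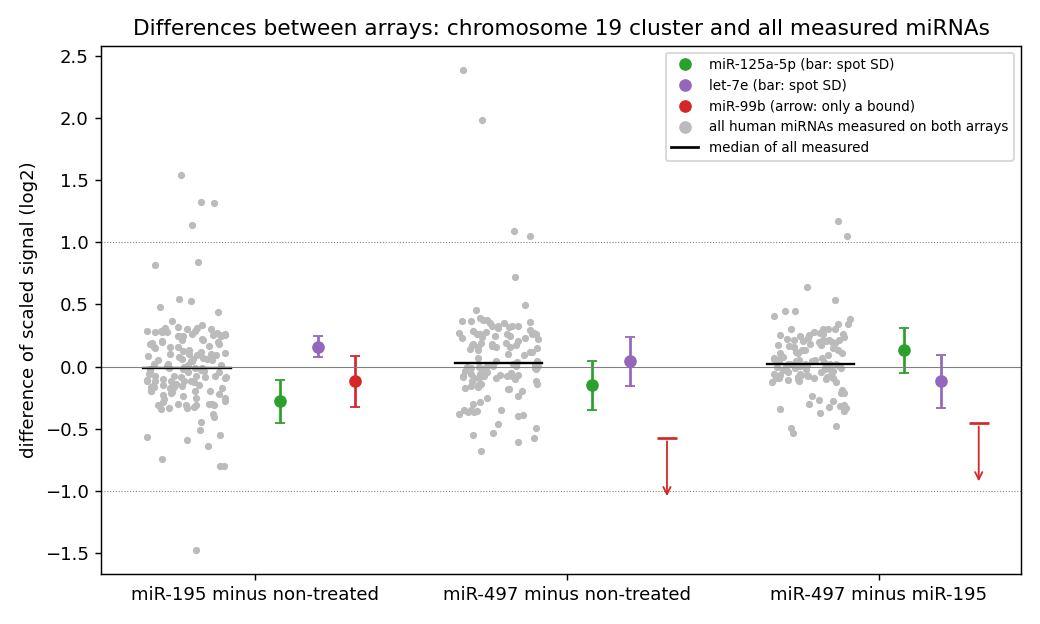
Difference of scaled signal (vertical axis, log2) in the 3 comparisons for miR-125a-5p, let-7e and miR-99b, with bars for the spot SD, beside all human miRNAs measured on both arrays (grey, 147, 118 and 117 miRNAs). Dotted lines mark 2-fold and arrows start at the bounds of miR-99b; miR-125a-5p and let-7e lie within the grey cloud.

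Most miRNAs no brighter than miR-99b in non-treated cells were not well above background after miR-497. Of the 167 human miRNAs well above background in non-treated cells, without the transfected names, 55 were no brighter there than miR-99b, itself included. Of these 55, 8 were well above background after miR-497 and 35 after miR-195. The 55 reached down to 11.1 units in non-treated cells, and those nearest below miR-99b in signal went both ways after miR-497. Of the 112 brighter miRNAs, 110 were so after miR-497 and all 112 after miR-195. At an unchanged scaled level miR-99b would have read 28.5 units on the miR-497 array, above the 19.1 units of the dimmest miRNA detected there, and it read 15.8. For its brighter probe alone the values were 23.7 and 14.9 units. A summed signal above 19.1 units did not always mean detection. Some of the 167 miRNAs, with sums up to 36.3 units on the miR-497 array, were not well above background there. Taken at its own signal rather than at the bound, miR-99b differed by -0.85 (spot SD 0.35) from non-treated cells, a value that rests on spots not well above background. The part of the dimmer array in this difference was not tested.

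**Figure D3:**
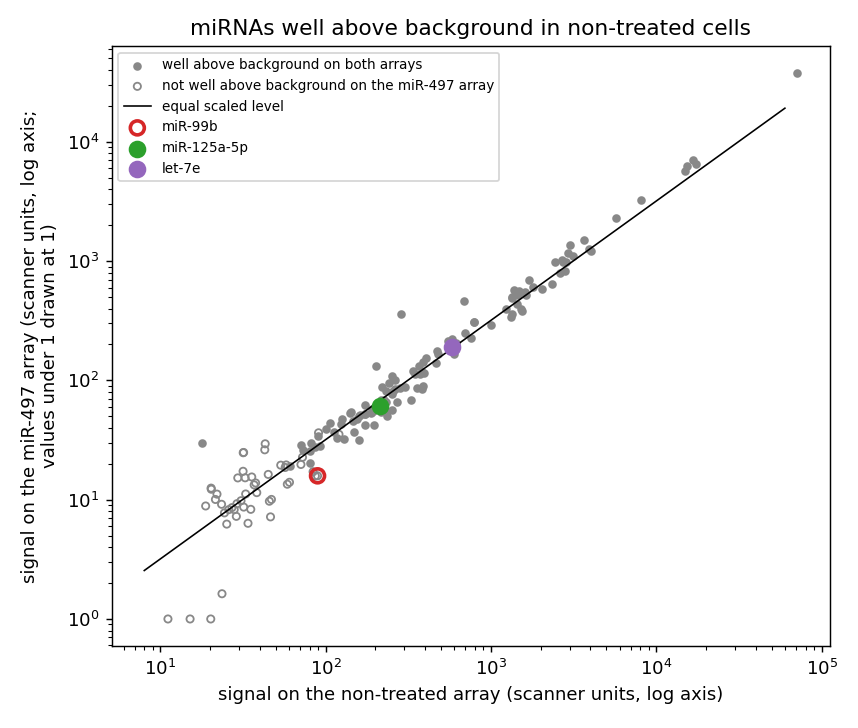
Signal of the 167 human miRNAs well above background in non-treated cells (horizontal axis, scanner units, log) against their signal on the miR-497 array (vertical axis, scanner units, log, values under 1 drawn at 1). The line marks an equal scaled level; miR-125a-5p (213 and 61.0 units) and let-7e (581 and 190 units) lie near it, and miR-99b (89.4 and 15.8 units) lies below it among the open points, which were not well above background on the miR-497 array.

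Ratios between the cluster copies were to be compared across arrays for miR-99a over miR-100, miR-99b over miR-100, miR-99b over miR-99a and miR-125a-5p over miR-125b. In each pair at least 1 copy was not well above background on any array, so no ratio was measured and no change of a ratio is given. In non-treated and miR-195-transfected cells, the chromosome 19 copy of each family was detected and the copies from chromosomes 11 and 21 were not. After miR-497 this held for miR-125a-5p, while no member of the miR-99/100 family was detected.

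Within the chromosome 19 cluster the ratios do not depend on the scaling factor of an array. let-7e differed by 0.16 (spot SD 0.09) after miR-195 and by 0.04 (spot SD 0.20) after miR-497, relative to non-treated cells. Relative to let-7e, miR-125a-5p changed by -0.44 (spot SD 0.20) after miR-195 and by -0.19 (spot SD 0.28) after miR-497. The value after miR-195 was larger than its spot SD, but spot SD holds nothing of the spread between cultures, immunoprecipitations or arrays. Part of it came from let-7e, whose brighter probe differed by 0.23 (spot SD 0.10) and whose other probe by -0.04 (spot SD 0.17). Relative to let-7e, miR-99b changed by -0.28 (spot SD 0.22) after miR-195 and by -0.61 at its bound after miR-497. The ratio of miR-99b to miR-125a-5p changed by 0.16 (spot SD 0.27) after miR-195 and by -0.42 at the bound after miR-497.

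**Figure D4:**
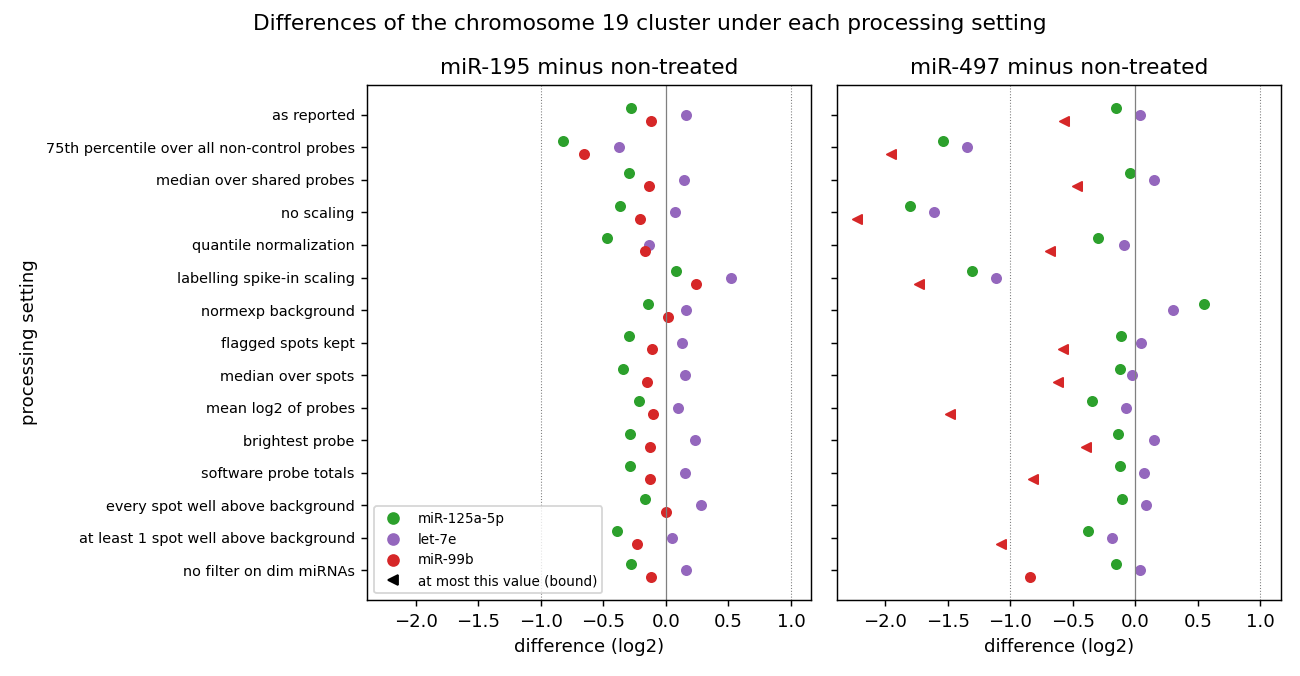
Differences from non-treated cells (horizontal axes, log2) of miR-125a-5p, let-7e and miR-99b under each of 15 processing settings (vertical axis), for miR-195 on the left and miR-497 on the right. Triangles are bounds and dotted lines mark 2-fold; without scaling, miR-125a-5p reached -1.80 after miR-497, and with normexp background correction it reached 0.55.

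The deposited table of normalized values does not give these levels for every member. For miR-99b on the miR-497 array it held 6.66 on the log2 scale, or 101 units, while the software's own totals for the probes of miR-99b summed to 8.41 units. There, 91.7% of the tabulated value did not come from the miRNA's probes. For miR-125a-5p the share was 10.2% in non-treated cells and 22.3% after miR-195, and the tabulated values were 123, 109 and 39.0 units against own totals of 111, 84.8 and 32.4. For miR-99b on the other arrays and for let-7e on each array, table and probes differed by less than 0.001 units. Read from the table, miR-99b would be higher by 1.13 log2 units after miR-497 than in non-treated cells, whereas its own probe totals, unscaled, stood at -2.46. miR-99a, miR-100 and miR-125b were listed at 0 on each array. The table was used for nothing else.

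**Figure D5:**
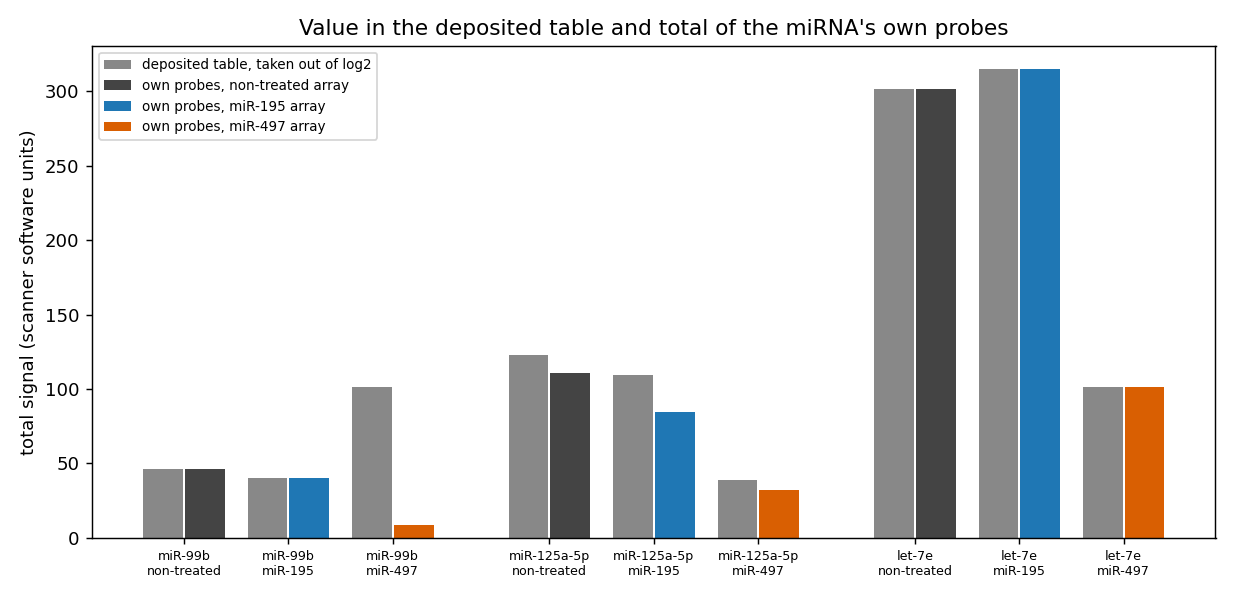
Total signal (vertical axis, scanner software units) of miR-99b, miR-125a-5p and let-7e on each array, as the deposited table gives it (grey) and as the sum over the miRNA's own probes (coloured). The bars agree for let-7e, while for miR-99b on the miR-497 array the table gives 101 units against 8.41 from its probes.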

How the data were processed

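Ago2-IP RNA of 3 Hep G2 samples (10 ng each) was Cy3-labelled, and each sample went onto 1 Agilent array of human miRNAs. The deposited scanner files hold spot intensity on a linear scale, made by the authors with Agilent Feature Extraction 10.7.1.1, with background subtracted and no scaling between arrays. The files hold no genome positions. The deposited series table holds log2 values of the software total per miRNA, and per the file headers it was made in GeneSpring. Only its values for the members and relatives were checked against their probes.

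Spots flagged as non-uniform or as population outliers were left out, the probes' spot means were added up per miRNA, and these sums were divided by the 75th percentile of the probes detected on all arrays. Groups came from the sample labels. There was no test with 1 array per group, a 2-fold size was used instead, and precision is limited by how few arrays there were. No spot of a member was saturated. The summary was also run on spots simulated from the non-treated array with a common cutoff for all arrays, unlike the real arrays. No result rests on that run. Calculations used numpy 2.4.6, pandas 2.3.3 and limma 3.58.1 (normexp, offset 50).

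The miRNAs named were the 5 members, their let-7 neighbours and other strands whatever their values, and the 2 miRNAs nearest in pattern to a member measured on all arrays. Members and lists were chosen with earlier results of these data known. Alternatives covered scaling, background, spots, probe summary, detection and the filter on dim miRNAs.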

Additional observations from a re-analysis of the deposited data

How the results depend on the processing

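No paired analysis was possible because each group held 1 array. Detection of the members was the same under the 8 alternatives for which it was counted (2, 2 and 1 members), and these alternatives were chosen after seeing the data. Of these, only keeping the outlier spots, taking the brightest probe and changing how many spots had to pass could alter it. The others left it unchanged by construction. The 0 members at 2-fold for miR-195 against non-treated cells held under all 15 alternatives. The median difference for miR-195 against non-treated cells became -0.74 when the scaling percentile was taken over every non-control probe, 0.16 when arrays were scaled to the labelling spike-in and -0.062 with normexp. For miR-497 against non-treated cells it became -1.53, -1.31 and 0.55 under these, -1.80 without scaling, -0.38 when 1 spot sufficed for detection and -0.50 without the filter on dim miRNAs. For miR-497 against miR-195 it became -0.71, -1.39 and 0.69, -1.43 without scaling, -0.13 with the mean log2 of probes and -0.30 without the filter. The count of members at 2-fold, in which a bound counts once it reaches 2-fold, was 0 for both miR-497 comparisons. For miR-497 against non-treated cells it was 2 with the percentile over all probes, without scaling and with spike-in scaling, and 1 with the mean log2 of probes or when 1 spot sufficed. For miR-497 against miR-195 it was 1, 2 and 2 under the same scalings, and 1 with the mean log2. The percentile over all probes, no scaling and spike-in scaling moved the median of all measured miRNAs to -1.36, -1.62 and -1.13 for miR-497 against non-treated cells, and to -0.55, -0.10 and 0.35 for miR-195. The normexp setting starts from the median pixel signal and the local background of each spot, and adds 50 units. The part of each step in its values was not tested, and no other cause was tested. Relative to let-7e, miR-125a-5p after miR-195 ranged from -0.52 to -0.30 over 10 alternatives, also chosen after seeing the data. Those for detection and for the filter on dim miRNAs could not move this ratio, which stayed at -0.44. After miR-497 it turned from -0.19 to 0.25 with normexp, and miR-99b relative to let-7e after miR-195 went from -0.28 to -0.035 with quantile normalization. The bound of miR-99b for miR-497 against non-treated cells ranged from -2.22 to -0.39 under the alternatives that gave one, its own signal gave -0.85, and normexp and the rule that every spot be well above background gave no value. The ratios between cluster copies had no value to vary. Members at a few units could not be ordered at this signal over background.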

Other observations

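Among the 117 human miRNAs measured on all 3 arrays, the pair of scaled differences from non-treated cells of miR-125a-5p was nearest to that of hsa-miR-500* (-0.25 after miR-195 and -0.18 after miR-497, distance 0.04 log2 units) and of hsa-miR-27a (-0.34 and -0.14, distance 0.06). The likeness was measured over 2 differences that share the non-treated array, and 30 of the 116 other miRNAs lay within the spot SD of the pair, 0.26 log2 units.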
